A study of Mus musculus with 11 samples.

Results

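The cells described here are T cells of the mouse small-intestinal mesenchyme that carried RNA of Lef1 or Ccr7. They were taken from 2 droplet libraries of whole mesenchyme, each cell having at least 500 detected genes and under 10% mitochondrial UMIs (unique molecular identifiers, which count RNA molecules). A cell was included when it had at least 1 UMI of Cd3d, Cd3e or Cd3g together, at least 1 UMI of Lef1 or Ccr7 together, no UMI of Cd79a and at most 2 UMIs of H2-Aa. The rule found 401 cells among 12266 kept cells, 205 of 6226 in replicate 1 and 196 of 6040 in replicate 2. These were 12.2% of the 3291 cells with a Cd3 UMI. The sorted PDGFRA-GFP library of the series held none among 3890 kept cells, so the 401 cells stand against 16156 single cells in all. The cells were thus chosen by measured values, those of Lef1, Ccr7, the Cd3 genes, Cd79a and H2-Aa, and Ms4a4b and Satb1 served to name them. The values of all these genes are given as description only.

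The study compared populations of intestinal mesenchyme as sources of the BMP gradient. Both whole-mesenchyme libraries came from primary cells, with no treatment named, of entire small intestines that had been stripped of muscle, freed of epithelium with EDTA and digested with collagenase II. The labels give no strain, genotype, sex, age or number of mice for them and do not say that the libraries came from separate animals. The p-values rest on how far the difference between cell groups varied between 2 libraries, and on the spread edgeR borrows from all tested genes. The variation between the libraries could be only technical. The comparison cells came from the same libraries. They were other Cd3 cells without a UMI of Lef1 or Ccr7 (1344 and 1358 cells), the Cd8a cells among them (247 and 248), and B cells with Ms4a1 and Cd79a but no Cd3 UMI (87 and 77). The labels' protocol names no step that removed lymphoid follicles of the gut wall. It repeats, for these libraries too, the text on sorting GFP cells, while 3291 of the 12266 kept cells held a Cd3 UMI.

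Naive T cells are T cells that have left the thymus and have not yet met their antigen. They circulate between blood and lymphoid organs, which they enter with the help of the chemokine receptor CCR7 and leave through the sphingosine-1-phosphate receptor S1PR1. LEF1 and TCF7 are transcription factors of the Wnt pathway that keep T cells in this state, and KLF2 drives transcription of S1pr1. T cells that stay in the gut carry other surface proteins, such as CXCR6 and the integrin chains Itgae and Itga1, and often granzymes and the chemokine Ccl5.

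Promoters of 3 genes are shown because RNA of Dapl1, Igfbp4 and Ms4a4b was higher in the Lef1/Ccr7 cells or marked them. Each runs from 250 bases before to 50 bases after the annotated start (RefSeq, GRCm38.p6), all on the forward strand: Dapl1 at chr2:59484403-59484702, Igfbp4 at chr11:99040994-99041293 and Ms4a4b at chr19:11443308-11443607. Capitals mark matches to 3 letter strings searched on both strands, which were the forkhead-type GTAAACA, the TCF/LEF-type CTTTGAT and the KLF-type CCACACCC.
Dapl1 promoter: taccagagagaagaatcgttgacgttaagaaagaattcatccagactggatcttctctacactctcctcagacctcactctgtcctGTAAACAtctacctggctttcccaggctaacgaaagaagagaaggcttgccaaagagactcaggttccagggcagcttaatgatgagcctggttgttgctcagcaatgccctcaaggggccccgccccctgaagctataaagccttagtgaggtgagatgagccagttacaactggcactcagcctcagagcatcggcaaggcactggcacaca
Igfbp4 promoter: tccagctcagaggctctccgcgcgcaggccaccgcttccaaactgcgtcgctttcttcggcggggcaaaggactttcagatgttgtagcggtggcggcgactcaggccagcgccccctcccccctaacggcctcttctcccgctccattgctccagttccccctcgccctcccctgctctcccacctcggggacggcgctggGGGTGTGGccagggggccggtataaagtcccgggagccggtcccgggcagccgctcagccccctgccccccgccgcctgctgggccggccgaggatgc
Ms4a4b promoter: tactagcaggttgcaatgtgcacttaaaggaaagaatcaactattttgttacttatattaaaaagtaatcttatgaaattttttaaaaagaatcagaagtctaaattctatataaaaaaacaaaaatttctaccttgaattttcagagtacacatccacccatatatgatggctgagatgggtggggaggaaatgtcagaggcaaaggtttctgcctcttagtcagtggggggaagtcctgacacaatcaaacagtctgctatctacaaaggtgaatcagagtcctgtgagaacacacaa
The Dapl1 promoter held the forkhead-type string starting at its base 87, the Igfbp4 promoter held the reverse complement of the KLF-type string starting at its base 203, and the Ms4a4b promoter held none of the 3 strings. Over all 32851 RefSeq promoters of the same length, 3.65% held the forkhead-type string, 3.73% the TCF/LEF-type string and 3.56% the KLF-type string, and over 10191 promoters of tested genes 2.7%, 2.41% and 3.63%. Among 212 promoters of genes higher in the Lef1/Ccr7 cells (164 of 218 genes matched), 3, 3 and 7 promoters held them (1.42%, 1.42% and 3.3%). A match describes letters only.

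The label was checked against T cell and naive markers before any comparison. A UMI of Trac, Trbc1 or Trbc2, which encode the constant regions of the alpha and beta receptor chains, was present in 391 of the 401 cells. Taken singly, Trac had a UMI in 241 cells (60.1%). Trdc, the delta receptor chain, had a UMI in 64 cells, and 12 cells had both Trac and Trdc. Of 11 B cell markers, Ms4a1, Ighd, Pax5 and Cd22 had no UMI in any of the 401 cells. The 11 summed to 2271 and 7247 CPM, beside 4297 and 2977 CPM in other Cd3 cells with the same limits and 161029 and 212778 CPM in B cells. Nearly all of this was Igkc, the kappa light chain, at 2119 and 7085 CPM, and 400 of the 401 cells held a UMI of the list. In replicate 2 the cells with Ccr7 but no Lef1 reached 19373 CPM, against 2237 CPM in replicate 1, and 10 cells held 87.4% of the list's UMIs in those cells. In barcodes with 1 to 10 UMIs, too few for a cell, Igkc was at 114127 and 117158 CPM in replicates 1 and 2. The part of such free RNA, or of B cell RNA, in the results was not tested. A UMI of S1pr1 was present in 118 cells (29.4%), and a UMI of the effector genes Ccl5 or Nkg7 in 215 cells (53.6%), with 30 cells having both. By these markers only some of the cells bear out the name naive-type, and the whole set is called Lef1/Ccr7 T cells here. S1pr1 is a low-abundance transcript, so a cell without a UMI may still express it.

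Lef1/Ccr7 T cells made up 3.29% of kept cells in replicate 1 (95% Clopper-Pearson interval 2.86% to 3.77%) and 3.25% in replicate 2 (2.81% to 3.72%). These intervals cover counting error only. After each cell was thinned to 1000 UMIs, 156 of 12218 cells (1.28%) met the rule, so the share depends on depth. The median cell held 3477 UMIs in replicate 1 and 3801 in replicate 2, beside 3511 and 3418 in other Cd3 cells held to the same Cd79a and H2-Aa limits. No barcode of the 401 was shared by the libraries (9 of all deposited barcodes were), and 10 of the 401 were predicted as doublets and kept.

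Many cells lay at the edge of the rule for Lef1 and Ccr7. In 187 cells (46.6%) these genes summed to 1 UMI, in 52 to 2 and in 162 to 3 or more. The Cd3 sum was 1 in 31 cells and H2-Aa was 0 in 339. Just outside the rule were 188 cells with Cd3 and Lef1 or Ccr7 that had passed a limit of Cd79a or H2-Aa. Of these, 43 failed by Cd79a alone (5 of them with 1 UMI), 121 by H2-Aa alone (4 with 3 or 4 UMIs) and 24 by both.

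Free RNA of the gate genes was measured in barcodes with 1 to 10 UMIs, too few for a cell. There Lef1 stood at 2.55 and 10.5 UMIs per 1000000 UMIs of the summed barcodes (CPM) and Ccr7 at 77.9 and 83.6 CPM in replicates 1 and 2. Lef1 was at 315 and 261 CPM and Ccr7 at 485 and 384 CPM in the Lef1/Ccr7 T cells. In stromal cells with 2 or more Pdgfra UMIs and no Ptprc, which should lack both genes, a Lef1 UMI was seen in 0.161% and 0.181% of cells and a Ccr7 UMI in 1.13% and 1.99%, at a higher median depth (7912 UMIs in replicate 1). Lef1 is near 0 in the stroma, whereas Ccr7 has a low level there.

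Lef1 and Ccr7 were often found in the same cell. Among Cd3 cells held to the Cd79a and H2-Aa limits, a Ccr7 UMI was present in 40.8% and 42.8% of cells with Lef1, and in 4.34% and 4.26% of cells without Lef1. The median depths of these groups were 3448.5 and 3713 UMIs with Lef1, and 3514.5 and 3449.5 without. Among the 401 cells, 173 had Lef1 only, 104 had Ccr7 only and 124 had both.

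Ms4a4b, which encodes a membrane protein of the MS4A family found on T cells, was at 420 and 446 CPM in the Lef1/Ccr7 T cells and at 136 and 145 CPM in other Cd3 cells with the same limits. The libraries lay close together and the groups were apart, and B cells were near 0 (3.06 and 7.71 CPM). Satb1, a chromatin organiser needed for T cell development, was at 927 and 975 CPM against 471 and 513 CPM. B cells overlapped that comparison level, at 536 and 476 CPM, so Satb1 RNA was not limited to T cells.

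**Figure D1:**
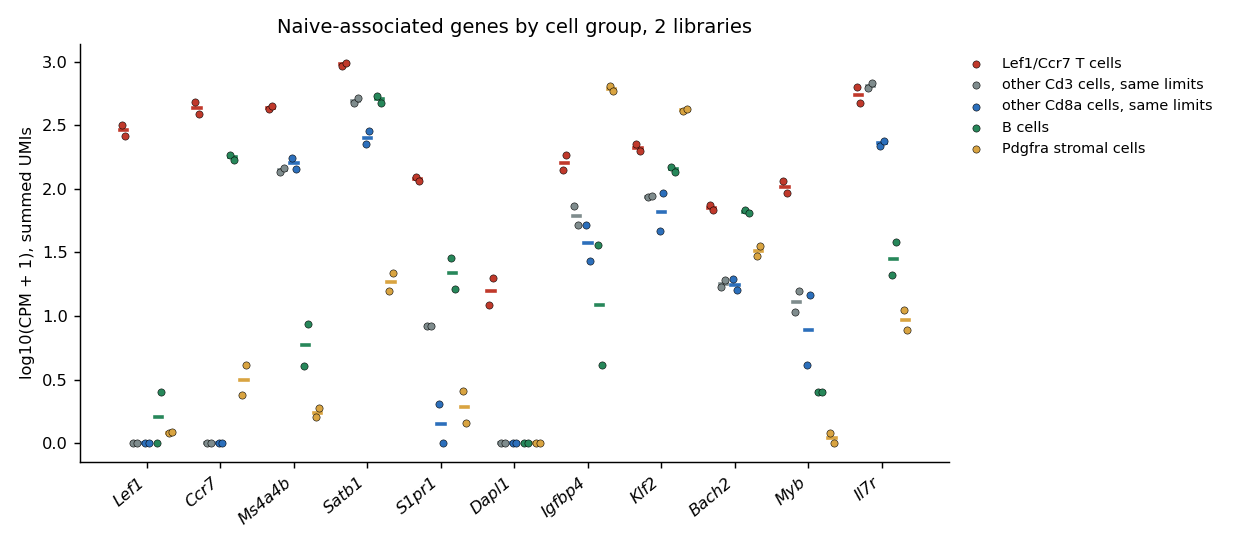
Levels of 11 genes (log10 of CPM + 1 on the vertical axis) in 5 cell groups. Each point is the summed UMIs of 1 library and the bar is the mean of the 2 libraries. Lef1 and Ccr7 chose the cells, so their gap to the other Cd3 cells is fixed by the rule. S1pr1 was at 123 and 114 CPM in the Lef1/Ccr7 T cells and at 7.3 and 7.34 CPM in other Cd3 cells, while Il7r lay at a like level in both.

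Against other Cd3 cells, the Lef1/Ccr7 T cells had more RNA of genes for lymphoid recirculation and less of genes for cytotoxicity and tissue residency. Of 11309 genes tested (UMIs summed per library and cell group, edgeR quasi-likelihood test with the library as a block, adjusted p under 0.05), 328 were higher (2.9%) and 569 lower (5.03%). The comparison cells had no limits on Cd79a and H2-Aa, and 388 of the 2702 carried more of these genes than the Lef1/Ccr7 T cells were allowed. With the same limits on both sides, 2314 comparison cells were left and 218 of 10188 genes were higher (2.14%) and 210 lower (2.06%). Of the lower genes, 78 were shared by the 2 fits (13.7% of the first list and 37.1% of the second), and of the higher genes 179 (54.6% and 82.1%). In the first fit 45 of 57 tested immunoglobulin genes were lower, and in the second none of 10 was lower and Ighm was higher. Ighm, the heavy chain of IgM, was at 99 and 98.2 CPM against 64 and 59.4 CPM (log2 0.80, adjusted p 0.0068). The 12 genes that fell most in the first fit, led by Ccr10, a chemokine receptor of antibody-secreting cells, and Vpreb3, a B cell gene, had no UMI in any Lef1/Ccr7 T cell. Ccr10 held 1065 and 1225 UMIs in the comparison cells without limits but 9 and 14 UMIs in those with them. The values below therefore come from the fit with the same limits unless another is named.

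S1pr1, the receptor for exit from lymphoid tissue, had 109 and 114 UMIs in the 205 and 196 Lef1/Ccr7 T cells and 36 and 33 UMIs in the 1167 and 1147 other Cd3 cells. It stood at 123 and 114 CPM against 7.3 and 7.34 CPM, with no overlap between the groups, a log2 fold change of 4.13 (SE 0.21) and an adjusted p of 2.45e-09 in edgeR's quasi-likelihood test. In B cells S1pr1 was at 27.5 and 15.4 CPM. Barcodes with 1 to 10 UMIs held S1pr1 at 10.2 and 11.8 CPM, above its level in the other Cd3 cells. The part of free RNA in that level was not tested. A UMI of S1pr1 was present in 29.3% and 29.6% of the Lef1/Ccr7 T cells, in 1.97% and 1.57% of the other Cd3 cells and in 0.965% and 0.362% of stromal cells. S1pr1 lies on chromosome 3, 115710433 to 115715072.

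Of 9 tested surface genes of naive and recirculating cells, 5 rose and none fell, with a median log2 fold change of 0.723 beside 0.00619 over all tested genes. The 5 were S1pr1, Itga6, Cxcr4, Cd27 and Cd28. Itga6, the alpha 6 integrin chain, was at 55.1 and 62.1 CPM against 17 and 16 CPM (log2 1.95, adjusted p 2.14e-05). Cd27, a costimulatory receptor, was at 168 and 147 CPM against 104 and 104 CPM (log2 0.72, adjusted p 0.0047). Il7r, the receptor for the survival cytokine IL-7, did not pass the test (log2 -0.12, adjusted p 0.707), at 629 and 473 CPM against 624 and 673 CPM.

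Of 11 tested transcription factors of naive T cells, Lef1 left out, 4 rose and 1 fell. Myb, a regulator of lymphocyte progenitors and stem-like T cells, was at 114 and 91.2 CPM against 9.73 and 14.7 CPM (log2 3.19, adjusted p 1.91e-07). Bach2, which restrains effector differentiation, was at 73.1 and 67.2 CPM against 15.8 and 18 CPM (log2 2.17, adjusted p 5.24e-06). Klf2 was at 223 and 198 CPM against 84.9 and 86.9 CPM (log2 1.41, adjusted p 4.99e-06), and Foxp1, a factor known from quiescent T cells, rose by a log2 of 0.48 (adjusted p 0.0221). Klf2 was not particular to T cells, and stromal cells held it at 409 and 425 CPM. Id3, an inhibitor of E proteins, was lower at 70.9 and 29.1 CPM against 160 and 134 CPM (log2 -1.48, adjusted p 2.07e-04), but at 0.301 it did not pass when cells with 3 or more UMIs of Pdgfra, Col1a1, Col3a1 and Dcn were left out. Tcf7, the close relative of Lef1, was at 166 and 115 CPM against 96.7 and 116 CPM and did not pass (adjusted p 0.122), with an overlap between the groups. Without the limits on the comparison cells 8 of the 11 were higher, with Tcf7 (adjusted p 0.0179), Ets1, Klf3 and Zeb1 added to the 4, and Id3 was lower.

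Other genes known from naive T cells gave 9 higher and none lower of 11 tested, with a median log2 fold change of 1.05. Dapl1, named for its likeness to a death-associated protein, had 10 and 19 UMIs in 6 and 11 of the Lef1/Ccr7 T cells and no UMI in 2314 other Cd3 cells or in B cells. Set against a floor of 3 UMIs over the comparison group, it was at least 48.3-fold higher (adjusted p 1.55e-04 in edgeR). DESeq2 did not call Dapl1 in the fit without limits (adjusted p 0.44). Igfbp4, a binding protein for insulin-like growth factors, was at 139 and 182 CPM against 71.9 and 50.9 CPM (log2 1.53, adjusted p 3.68e-05). Igfbp4 stood at 642 and 583 CPM in stromal cells. Nsg2 (log2 1.89), Actn1 (log2 1.48) and Ms4a6b (log2 1.05) passed as well, with adjusted p of 3.23e-04, 1.55e-04 and 3.17e-05. Txk and Tspan32 did not pass.

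Genes outside the lists were also among the 12 with the greatest rise. St8sia6, which encodes a sialyltransferase, had 27 and 26 UMIs against 6 and 11 (log2 4.05, adjusted p 1.5e-05). Cmah, an enzyme of sialic acid synthesis, was at 50.6 and 48.1 CPM against 6.28 and 5.34 CPM (log2 3.2, adjusted p 1.3e-06). B cells held more of both genes, St8sia6 at 65.8 and 55.5 CPM and Cmah at 153 and 117 CPM. Neither passed against comparison cells without the B cell limits. Rflnb, a partner of filamin, was at 102 and 97.2 CPM against 13.6 and 15.1 CPM (log2 2.92, adjusted p 1.1e-07). Ribosomal protein genes made up 28.9% and 29.3% of the UMIs of Lef1/Ccr7 T cells and 22.6% and 22.8% in other Cd3 cells. Of 80 tested ribosomal protein genes 76 rose and none fell, with a median log2 fold change of 0.46. Of 12 proliferation genes 3 rose and none fell, with a median log2 fold change of 0.555. Mki67, a marker of cycling cells, was at 70.9 and 92.2 CPM against 59.6 and 43.4 CPM (log2 0.80, adjusted p 0.0274), and H2afz and Tubb5 were the others. Without the limits only H2afz was called.

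Of 21 tested cytotoxic and NK-type genes, 8 fell and none rose, with a median log2 fold change of -0.65. Gzma, the protease granzyme A, was at 895 and 811 CPM against 2984 and 3006 CPM (log2 -1.69, adjusted p 7.11e-10). Gzmb, granzyme B, was at 254 and 322 CPM against 645 and 692 CPM (log2 -1.1, adjusted p 4.85e-06). Ccl5, a chemokine of effector and resident T cells, was at 2001 and 2165 CPM against 4196 and 4242 CPM (log2 -0.9, adjusted p 1.14e-07). Every one of these 3 genes was lower in both libraries than in either comparison sum, yet Ccl5 in the Lef1/Ccr7 T cells remained above its free-RNA level of 543 and 669 CPM. Nkg7, a granule membrane protein, fell by a log2 of 0.496 (adjusted p 0.0054), but without the limits on the comparison cells its adjusted p was 0.777. Klrd1, Cd160, Prf1 and Xcl1 did not pass.

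Genes of residency in the gut fell in 8 of 17 tested cases and rose in none, with a median log2 fold change of -0.528. Rgs1, which dampens chemokine receptor signals, was at 586 and 408 CPM against 1081 and 1121 CPM (log2 -1.04, adjusted p 1.89e-05). Cxcr6 was at 296 and 199 CPM against 494 and 535 CPM (log2 -0.95, adjusted p 3.3e-04). Itga1, a collagen-binding integrin chain, was at 43.9 and 53.1 CPM against 109 and 114 CPM (log2 -1.08, adjusted p 9.78e-04), and Itgae, the chain that binds E-cadherin, passed narrowly (log2 -0.69, adjusted p 0.0444). Ccr9 and Itgb7, which guide T cells to the small intestine, did not pass, with Ccr9 at 183 and 188 CPM against 264 and 263 CPM.

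Among 14 effector transcription factors 7 fell (Bhlhe40, Gata3, Id2, Ikzf3, Maf, Rora and Zeb2) and none rose. Zeb2 was at 148 and 93.2 CPM against 229 and 239 CPM (log2 -0.85, adjusted p 0.00396). Tbx21 and Eomes did not pass. Among 14 memory and activation genes 3 fell, of which Cd44, the hyaluronan receptor, was at 114 and 91.2 CPM against 166 and 163 CPM (log2 -0.57, adjusted p 0.0373). Without the limits on the comparison cells, fewer of these genes were called: 5 cytotoxic, 5 residency and 1 effector factor lower, with 2 residency genes and 1 effector factor higher.

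Genes of the antigen receptor were looked at next. Of 18 genes of the T cell receptor and its signalling, Cd2, an adhesion receptor, rose (log2 0.62, adjusted p 0.0066) and none fell. Over all tested genes 2.14% were higher and 2.06% lower, so a list of 18 would hold few calls in any case. In the edgeR fit 6 of the 18 had an unadjusted p under 0.05. Trac was at 316 and 280 CPM against 337 and 333 CPM. Without the limits 7 of the 18 were higher. Of 10 coreceptor and lineage genes, Cd8b1 rose (51.7 and 75.2 CPM against 34.7 and 37.1 CPM, adjusted p 0.00859) while Cd8a fell (83.2 and 62.1 CPM against 129 and 132 CPM, adjusted p 0.0175). Conventional CD8 T cells pair CD8 alpha with CD8 beta, and many intraepithelial T cells carry CD8 alpha alone. Trdc, the delta receptor chain, was lower at 144 and 164 CPM against 257 and 253 CPM (log2 -0.6, adjusted p 0.00961). None of 10 genes of regulatory T cells was called in this edgeR fit (4 had an unadjusted p under 0.05), and at 21.4 and 33.1 CPM against 24.7 and 20.9 CPM the groups overlapped for Foxp3. None of 13 tested cytokine genes was called by edgeR (5 had an unadjusted p under 0.05), and DESeq2 was not run with the limits. With fibroblast-bearing cells also left out, Ctla4, Icos and Il2ra of the regulatory list fell.

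Early-response and stromal genes moved with the same contrast. Of 19 immediate early and heat shock genes 8 fell, among them Fos, Egr1 and Hspa1a (log2 -1.32, adjusted p 0.00122). Tissue digestion is known to induce such genes. Of 7 stromal markers 4 fell (Col1a1, Col3a1, Col6a2 and Gsn). The 7 markers summed to 2068 and 2019 CPM in the Lef1/Ccr7 T cells and 3049 and 2798 CPM in other Cd3 cells, none of them was at 0, and 10 cells held 91.5% of the stromal UMIs of the Lef1/Ccr7 T cells. A further fit left out 14 Lef1/Ccr7 T cells and the comparison cells with 3 or more fibroblast UMIs. There 190 of 9279 genes were higher (2.05%) and 180 lower (1.94%). None of 6 stromal markers was called by edgeR (0 had an unadjusted p under 0.05). The early-response genes lower numbered 5 (Btg2, Hspa1a, Junb, Nfkbia and Nr4a2), and Fos and Egr1 were no longer called. In that fit Egr1 and Jun had changed sign to 0.21 and 0.0942. The counts for the main lists were 4 surface genes, 4 factors and 7 other naive genes higher, and 8 cytotoxic, 9 residency and 7 effector-factor genes lower.

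**Figure D2:**
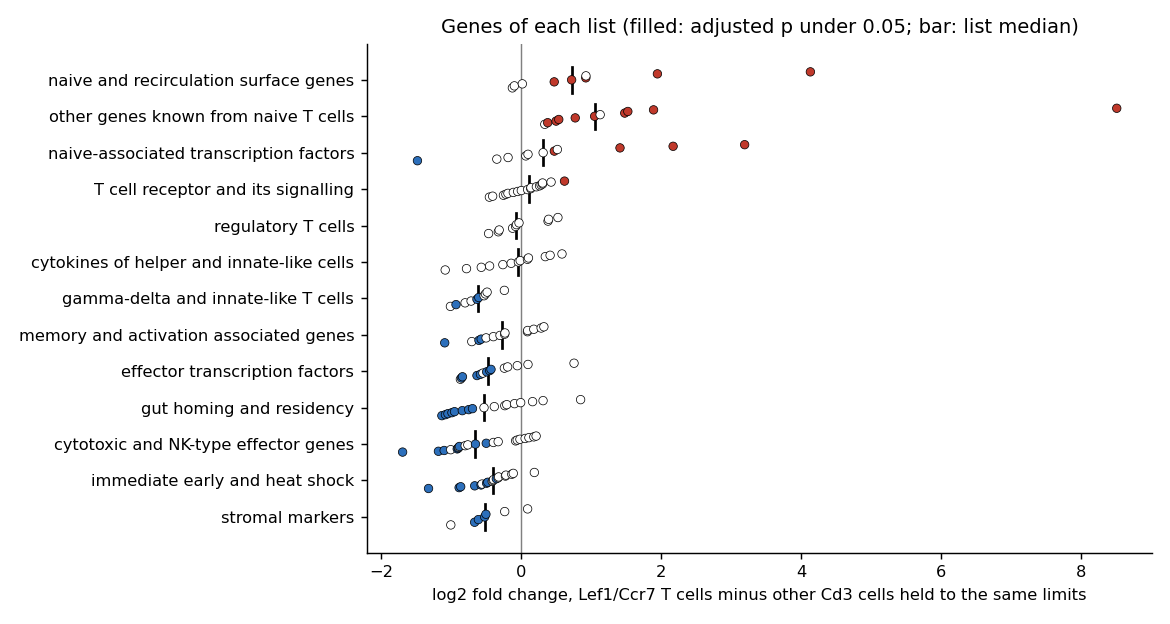
Log2 fold change of each tested gene (horizontal axis) in 13 gene lists, for Lef1/Ccr7 T cells minus other Cd3 cells held to the same limits. Filled points had an adjusted p under 0.05, red for higher and blue for lower, and the black bar is the list's median. Points of the naive lists reach far to the right with Dapl1 and S1pr1, while called cytotoxic and residency genes all lie to the left.

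The 401 cells were not alike. The following splits were made on the rule's own genes after results of these data were known, and they are described without a test. A UMI of S1pr1 was present in 62.9% and 67.7% of cells with both Lef1 and Ccr7, in 8.89% and 6.02% of cells with Lef1 only, and in 24.5% and 21.6% of cells with Ccr7 only. In other Cd3 cells with the same limits the share was 1.97% and 1.57%. For Ccl5 or Nkg7 the order was turned round: 25.8% and 27.4% with both, 71.1% and 73.5% with Lef1 only, and 52.8% and 56.9% with Ccr7 only, beside 71.2% and 70.5% in other Cd3 cells and 5.95% and 5.61% in stromal cells. Cells with Lef1 only thus lay near the other Cd3 cells on the effector pair.

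Several genes were highest or lowest in the cells with both gate genes in each library. Igfbp4 was at 378 and 395 CPM with both gate genes, 54.3 and 86.8 CPM with Lef1 only, and 30.1 and 92.7 CPM with Ccr7 only. Ms4a4b was at 840 and 796 CPM with both, and at 210 to 331 CPM in the other 4 sums. Dapl1 UMIs came from cells with both gate genes in all but 1 of its 17 cells. Cxcr6 was at 87.6 and 95.4 CPM with both, 491 and 334 CPM with Lef1 only, and 181 and 129 CPM with Ccr7 only. Trdc had a UMI in 6.45% and 8.06% of cells with both genes and in 21.1% and 26.5% of those with Lef1 only. Il7r showed no such order, with a UMI in 67.7% and 67.7%, 73.3% and 72.3%, and 75.5% and 68.6% of the 3 classes. The ribosomal share of UMIs was 36.6% and 34.9% with both genes and 24.1% and 25.5% with Lef1 only.

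**Figure D3:**
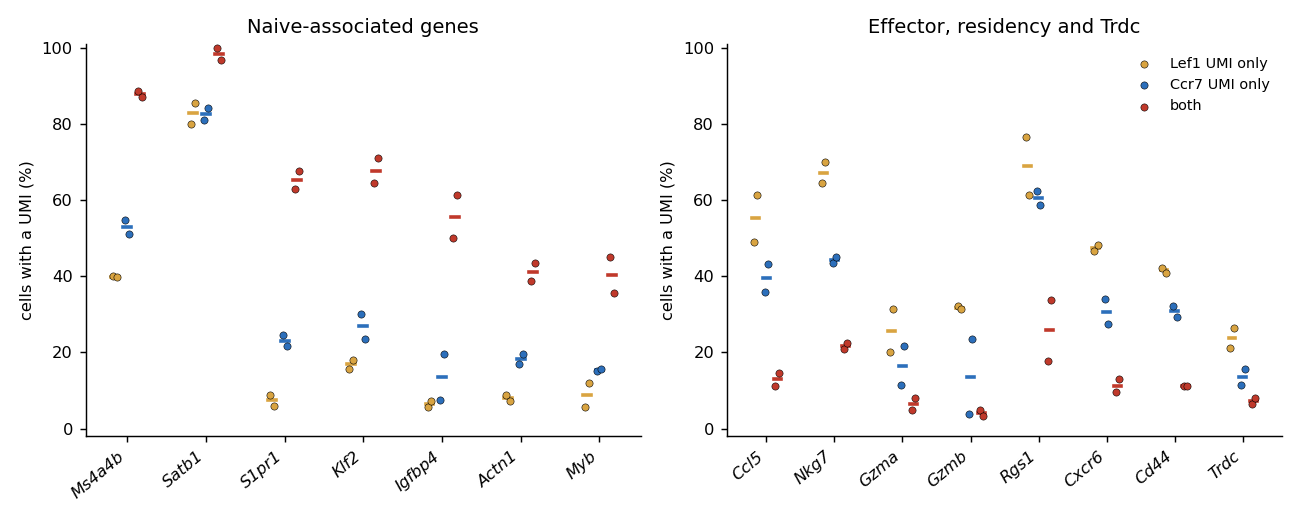
Percent of cells with a UMI (vertical axis) for 7 naive-associated genes and 8 effector, residency and receptor genes, in cells with Lef1 only, Ccr7 only or both. Each point is 1 library and the bar is the mean of 2. Cells with both genes stand highest for S1pr1 (62.9% and 67.7%) and lowest for Ccl5 (11.3% and 14.5%).

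The cells were also split by the sum of the gate genes. S1pr1 was at 16.8 and 17.5 CPM in cells with 1 UMI of Lef1 and Ccr7 together, 46.6 and 97.9 CPM with 2, and 266 and 208 CPM with 3 or more. Klf2 was at 103 and 34.9 CPM with 1 UMI, 158 and 131 CPM with 2, and 379 and 370 CPM with 3 or more. Gzmb was at 367 and 573 CPM with 1 UMI, 624 and 379 CPM with 2, and 16.5 and 74.5 CPM with 3 or more, so it was lowest in the last class while the order of the other two differed between libraries. Ccl5 was at 3290 and 3759 CPM with 1 UMI and 162 and 663 CPM with 3 or more, the latter beside a free-RNA level of 543 and 669 CPM. The classes hold 99 and 88, 23 and 29, and 83 and 79 cells.

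**Figure D4:**
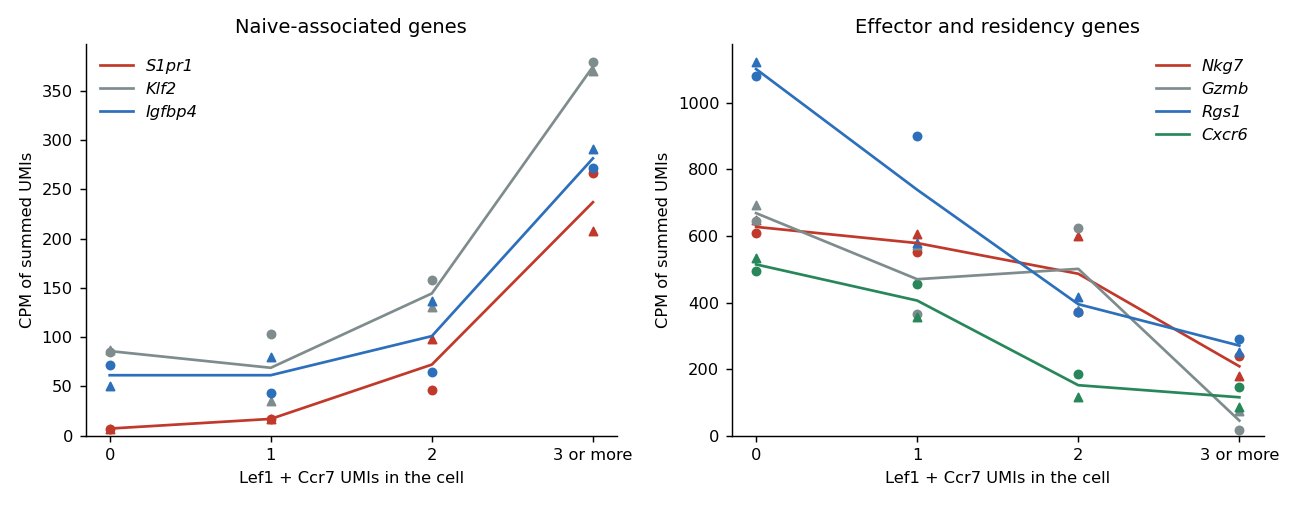
CPM of summed UMIs (vertical axis) by the number of Lef1 and Ccr7 UMIs in the cell (horizontal axis), where 0 is the other Cd3 cells with the same limits. Circles are replicate 1, triangles replicate 2 and lines join their means. S1pr1 and Klf2 are highest at 3 or more UMIs, where Gzmb, Rgs1 and Cxcr6 are lowest in both libraries.

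The Cd8a cells among the other Cd3 cells formed the second comparison group. They are a subset of the comparison cells above, so both comparisons share cells and the same Lef1/Ccr7 T cells. Of 8511 genes tested, 603 were higher in the Lef1/Ccr7 T cells (7.08%) and 615 lower (7.23%). With the same Cd79a and H2-Aa limits (213 and 201 cells), 368 of 7733 were higher (4.76%) and 236 lower (3.05%). Of 21 cytotoxic genes 14 fell and none rose, with a median log2 fold change of -1.6 beside -0.00268 over all genes. Gzma was among them, at 895 and 811 CPM against 9241 and 11656 CPM in the Cd8a cells (log2 -3.45, adjusted p 1.24e-07). Lat2, an adaptor also known from B and myeloid cells, and Cd200r2 were among the greatest falls, with 3 and 3 UMIs against 74 and 69 for Lat2. S1pr1 had 109 and 114 UMIs against 1 and 0, a log2 fold change of 7.55 (adjusted p 2.48e-05).

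The Cd8a cells were chosen by their coreceptor, while 78 of the 401 Lef1/Ccr7 T cells had Cd8a or Cd8b1 without Cd4, so a difference in coreceptor genes follows from the choice. A UMI of Ccl5 or Nkg7 was present in 97.2% and 95.6% of the Cd8a cells without limits. How much of the differences in cytotoxic, helper and regulatory genes follows from the choice was not tested. Cd4 and Cd40lg rose, and 7 of 10 regulatory genes rose and Ikzf2 fell. Foxp3, the factor of regulatory T cells, had 19 and 33 UMIs against 4 and 0 (log2 3.65, adjusted p 0.0103). Il10 had 38 and 35 UMIs against 2 and 1 (log2 4.58, adjusted p 4.89e-04), but only 4 and 10 cells carried them. Of 10 cytokine genes Areg, Il10, Il17a, Il22 and Ltb rose. Il17a had 169 and 124 UMIs in the Lef1/Ccr7 T cells. Of these, 116 and 123 lay in the cells with Cd4 and no Cd8 described below, where few cells held them. The same Cd4 cells held 162 UMIs of Il22 in replicate 1 but 4 in replicate 2. Of 17 residency genes 6 fell and 5 rose. Itgae and Itga1 were among those that fell, and Cxcr6 and Ccr6 among those that rose. Of 13 tested effector transcription factors 6 rose (Bhlhe40, Gata3, Hopx, Maf, Rora and Zbtb16) and none fell. Bhlhe40, Gata3, Maf and Rora had fallen against other Cd3 cells, so their direction depended on the comparison group. The naive surface list gave 5 higher and 1 lower (Gpr18) of 9. Of 19 immediate early and heat shock genes 4 rose and 1 fell.

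Against B cells, 1016 of 6956 tested genes were higher (14.6%) and 931 lower (13.4%) in the Lef1/Ccr7 T cells. All 1016 higher genes had the same direction in both libraries, but only 867 of the 931 lower ones did. Of 18 T cell receptor genes 17 rose, and all 10 tested B cell markers fell. Cd6, Sh2d1a, Trat1 and Themis, genes of T cell signalling, had no UMI in 164 B cells and were at least 46, 44.2, 42.8 and 21.4-fold higher. Pax5, the B cell identity factor, and Vpreb3 had no UMI in the Lef1/Ccr7 T cells and were at least 74.9-fold and 129-fold lower. S1pr1 rose here too, at 123 and 114 CPM against 27.5 and 15.4 CPM, whereas Klf2 was not called. Ccr7, which B cells also use to reach T cell zones, had a UMI in 63.2% and 62.3% of B cells. Since Cd79a and Ms4a1 chose the B cells, their other identity genes had to differ, and these counts serve to check the cells.

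Coreceptors split the 401 cells into 115 with Cd4 and no Cd8, 78 with Cd8a or Cd8b1 and no Cd4, 5 with both and 203 with neither. S1pr1 was present in each. It was at 160 and 97.7 CPM in the Cd4-type cells, 94.1 and 131 CPM in the Cd8-type cells and 108 and 119 CPM in cells with neither. A UMI of S1pr1 was present in 39.4% and 28.6% of Cd4-type and in 19.5% and 35.1% of Cd8-type cells, so the order of these 2 types differed between libraries. Trdc had a UMI in 64 cells and Foxp3 in 28.

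Of 3708 tested genes, 33 were higher (0.89%) and 82 lower (2.21%) in the Cd8-type than in the Cd4-type cells. Cytotoxic genes were higher in the Cd8-type cells in 6 of 11 tested cases (Ccl5, Cd160, Ctsw, Fcer1g, Klrd1 and Nkg7) and lower in none. Klrd1, an NK receptor chain, had 41 and 60 UMIs against 8 and 3 (log2 3.68, adjusted p 3.36e-06), and Ccl5 was at 5062 and 3568 CPM against 1079 and 443 CPM (log2 2.6, adjusted p 2.57e-06). Trdc and Tcrg-C4, chains of the gamma-delta receptor, were also higher, with 45 and 22 against 7 and 2 UMIs for Trdc. Bend4, a BEN-domain gene, had 26 and 29 UMIs in the Cd8-type and none in the Cd4-type cells, at least 26.2-fold higher. Of the naive lists no gene was higher in the Cd8-type, and Cd28 alone was lower (log2 -1, adjusted p 0.0289) among 7 surface genes, 11 factors and 9 other genes tested.

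Several genes known from helper T cells were among those higher in the Cd4-type cells. The types were chosen by coreceptor RNA, and how much of the differences in helper and cytotoxic genes follows from that choice was not tested. Cd40lg, the ligand through which helper T cells act on B cells, had 22 and 20 UMIs there and none in the Cd8-type cells, which were at least 9.81-fold lower. Tnfrsf4, the receptor OX40, had 68 and 170 UMIs against 2 and 2 (log2 -5.32, adjusted p 1.15e-07), and Maf 142 and 136 against 22 and 10 (log2 -2.6, adjusted p 1.47e-05). Il17a had 116 and 123 UMIs against 1 and 0, but these came from 5 and 5 cells. Of 8 regulatory genes 5 were higher in the Cd4-type cells and none in the Cd8-type, and of 6 cytokine genes 4 (Areg, Il17a, Il22 and Ltb). Il22 differed in direction between libraries, at 517 and 14 CPM in the Cd4-type against 126 and 21.8 CPM in the Cd8-type cells.

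Stromal RNA differed between the coreceptor types. All of 7 stromal markers together stood at 2986 and 3134 CPM in the Cd4-type and 497 and 65.5 CPM in the Cd8-type cells, 10 cells held 97.4% of these UMIs in the Cd4-type, and 5 of 6 tested markers, led by Dcn, were higher there. With cells of 3 or more fibroblast UMIs left out, no stromal marker was tested, 28 of 3473 genes were higher in the Cd8-type (0.806%) and 64 lower (1.84%), and the counts were 6 cytotoxic genes higher, 4 cytokine genes lower and 4 regulatory genes lower, Capg no longer passing (adjusted p 0.0638). With no cells left out, where edgeR called 33 genes higher and 82 lower, DESeq2 called 6 higher and 12 lower. The counts for this split thus depend on the tool.

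**Figure D5:**
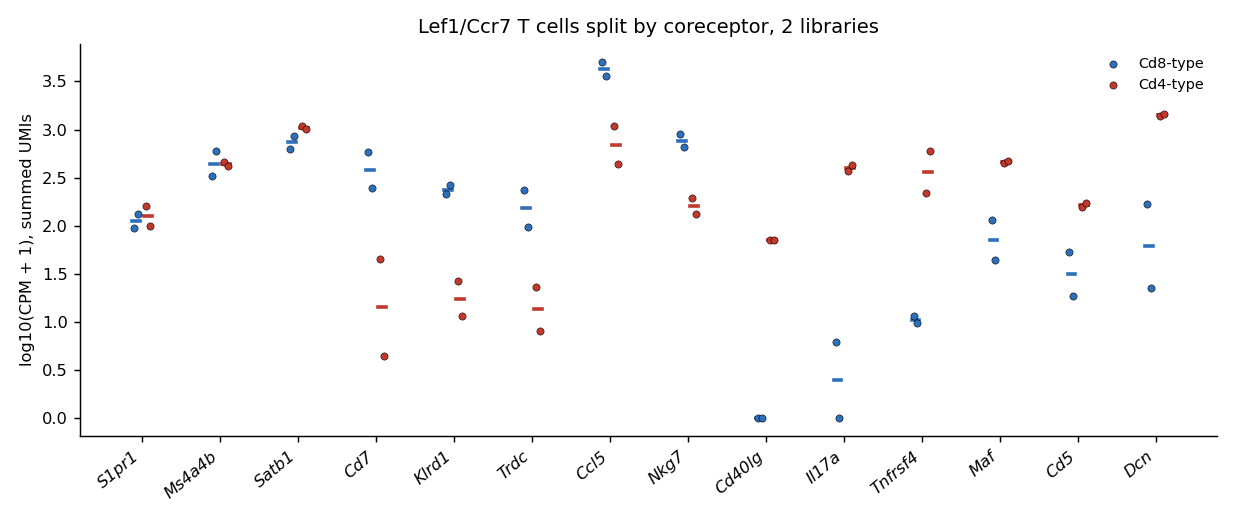
Levels of 14 genes (log10 of CPM + 1 on the vertical axis) in Cd8-type and Cd4-type Lef1/Ccr7 T cells. Each point is 1 library and the bar is the mean of 2. S1pr1 overlaps between the types, Cd7, Klrd1 and Ccl5 are higher in the Cd8-type, and Cd40lg, Il17a, Tnfrsf4 and the stromal gene Dcn in the Cd4-type.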

How the data were processed

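UMI counts were deposited as the authors' Cell Ranger 3.0.2 matrices on mm10, per the submitters' processing notes, which also name STAR. Filtered matrices held 6886 and 6676 barcodes. Counts were summed per library and cell group and tested with edgeR 4.0.16 in R 4.3.3 (filterByExpr, TMM, quasi-likelihood F-test, Benjamini-Hochberg over all tested genes). The library was a block because both cell groups came from each library, which leaves 1 residual degree of freedom. From the spread over all tested genes edgeR added 7.45 (other Cd3 cells) to 19.6 (coreceptor types) degrees of freedom, so the p-values rest mostly on that. The genes of the rule were left out of the tests. Ms4a4b and Satb1 were not left out of the fits, so the counts over all genes can include them. They were left out of the lists and of the genes named from the tests. DESeq2 1.42.0 was an alternative. Doublets were predicted with Scrublet in scanpy 1.11.5 on all filtered barcodes. Bulk counts in the authors' deposited table were scaled to CPM for 11 genes, with no test. The fits were also run on simulated sums with the same spread for every gene, which do not model RNA held by few cells, and no result above rests on them. Genes named are list genes and the 12 with the greatest rise and fall per comparison among genes with an adjusted p under 0.05, 20 or more UMIs in the higher group and 1 direction in both libraries. The cells and the lists were chosen with earlier results of these data known. The rule was also applied, after seeing the data, to fits with the same Cd79a and H2-Aa limits. Settings were 500 genes, 10% mitochondrial UMIs and a floor of 3 UMIs. Gene positions are from GENCODE M21 on GRCm38. Some items are not reported here, and they were left out of the lists and of the genes named.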

Additional observations from a re-analysis of the deposited data

Results flagged for a closer look

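The bulk libraries of sorted mesenchymal populations, which no comparison above used, held RNA of 3 genes of the Lef1/Ccr7 T cells beyond the level in telocytes in all but 1 case (Cd3g 0.698 and 1.73 CPM, Ccr7 1.31 and 0.575 CPM, Ms4a4b 0.175 and 0.575 CPM). Cd3g was at 1.57 and 29.2 CPM in PDGFRAlo cells, 66.4 and 29.7 CPM in blood endothelium and 129.6 and 21.1 CPM in lymphatic endothelium. Ccr7 was at 10.5 and 44.9 CPM, 16.99 and 16.7 CPM, and 102.7 and 42.3 CPM in the same order. Which cells of these libraries held the RNA was not tested. Ms4a4b was at 1.57 and 17 CPM, 32.1 and 25.4 CPM, and 67.1 and 23.9 CPM. In PDGFRAlo cells the 2 libraries lay far apart, and Cd3g in replicate 1 was below telocyte replicate 2. Other genes did not all follow: Satb1 was at 5.76 and 6.28 CPM in blood endothelium against 18 and 15.2 CPM in telocytes, and Lef1 was at 2.69 and 0.337 CPM in lymphatic endothelium against 0.349 and 0.431 CPM. The same libraries held Cd79a, a gene of B cells, which carry Ccr7 too. It was at 9.28 and 34.3 CPM in PDGFRAlo cells and 75.4 and 30.3 CPM in blood endothelium. In lymphatic endothelium it was at 1280 and 493 CPM, and in telocytes at 1.22 and 2.09 CPM. S1pr1 was at 426 and 730 CPM in blood endothelium, 175 and 390 CPM in lymphatic endothelium and 2.79 and 1.22 CPM in telocytes. PDGFRAlo cells held S1pr1 at 97.6 and 38.5 CPM.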

How the results depend on the processing

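Against other Cd3 cells (328 genes higher, 569 lower), DESeq2 called 149 and 204, the same limits in both groups 218 and 210, thinning to 1000 UMIs 186 and 156, a Cd3 sum of at least 2 gave 196 and 345, and the same limits without fibroblast-bearing cells 190 and 180. No low-count filter gave 929 lower. Against Cd8a cells (603 and 615), DESeq2 called 166 and 152, the same limits 368 and 236, thinning 309 and 206, and no filter 957 lower. Against B cells (1016 and 931) DESeq2 called 258 and 286. Between coreceptor types (33 and 82) DESeq2 called 6 and 12, no filter 58 and 153, and leaving out predicted doublets 65 and 129. The share of cells (3.27%) was 1.28% after thinning, 3.23% with at least 200 genes, 2.39% under 5% mitochondrial UMIs, and 3.25% to 3.29% with 1 library left out. The cause of these shifts was not tested. Without the replicate block, that is without the pairing of cell groups by library, 518 genes were higher against other Cd3 cells, and 11 higher and 31 lower between coreceptor types. The other counts stayed within 1.5 times of those with the block.

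Genes whose log2 fold change against other Cd3 cells changed sign were few. With the same limits and without fibroblast-bearing cells they were Egr1 (0.21), Ets1 (-0.0156), Id3 (0.301), Ikzf2 (-0.196), Jun (0.0942), Ltb (-0.0451) and Zfp36 (0.138). Without fibroblast-bearing cells alone Egr1 was at 0.0304 and Id3 at 0.313, with a Cd3 sum of at least 2 Egr1 was at 0.297, and with Lef1 and Ccr7 summing to at least 2 Hopx was at -0.318. Thinning gave Ikzf2 -0.136, Ltb -0.0275, Lum -0.481 and Rgs2 -0.0927, the same limits gave Ikzf2 -0.0775, and cells chosen by Ccr7 alone gave Ikzf2 -0.0235. With 1 library left no residual degree of freedom remained and no test could be run. Low counts per gene limit what could be called: Dapl1 rested on 29 UMIs.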
